A study of Homo sapiens with 12 samples.

Results

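The polyadenylated replacement histone variants were taken by symbol as the rows H2AFZ, H2AFV, H2AFX, H2AFY, H2AFY2, H2AFJ, H3F3A, H3F3B, H1F0 and H1FX, 10 of the 57704 genes in the count table. Of these, 9 were among the 13820 genes that passed the filter on low counts, and H2AFJ was not. They were followed in HEK293, an established line from human embryonic kidney, here as 1 stable reporter line that carries an endogenous intronic sequence and DARP-EGFP. All 12 cultures were split from the same starting culture, so every group carries the reporter. A pool of siRNAs against SUPT4H1 was transfected into 6 cultures and scrambled siRNAs into 6, at 100 nM, and RNA was taken 72 hours later; a pool gives a partial loss in a mixed culture and not a clone without the gene. SUPT4H1 encodes SPT4, a subunit of the transcription elongation factor DSIF, which travels with RNA polymerase II. External RNA standards (ERCC) went into each lysate, with mix 1 in all scrambled lysates and mix 2 in all SUPT4H1 lysates. The libraries count polyadenylated 3′ ends, 1 tag per transcript copied, so length does not enter a level and levels can be set side by side between genes.

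Nucleosomes are built mainly from replicative histones, whose genes lie in clusters, have no introns, are switched on in S phase and give mRNAs that end in a stem-loop and carry no poly(A) tail. Replacement variants are made through the whole cell cycle from single genes that mostly give ordinary polyadenylated mRNAs. H2A.Z, encoded by H2AFZ and H2AFV, sits in the nucleosomes that flank active promoters. H3.3, one protein from H3F3A and H3F3B, is laid down in transcribed genes and at telomeres. H2A.X (H2AFX) is phosphorylated around DNA breaks, macroH2A (H2AFY and H2AFY2) is known from the inactive X chromosome and from silent domains, H2A.J (H2AFJ) is known from senescent and secretory cells, and H1.0 (H1F0) and H1X (H1FX) are linker histones that close the turns of DNA around the nucleosome.

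Transcript ends decide whether a histone mRNA can be seen in such libraries, and the following ends are shown because they belong to the 6 most abundant members and to H3F3A, the second gene of H3.3. They are the last 30 bases of the annotated transcript (GENCODE release 29, GRCh38), with a poly(A) signal, where one was found, in capitals.
H2AFZ, chr4:99948088-99948117, minus strand: ggataagttcAATAAAggtcatatcccaaa
H3F3B, chr17:75776434-75776463, minus strand: atgagactaaAATAAAatttttgaagttaa
H2AFV, chr7:44834228-44834257, minus strand: gaattgataaaccattttttacaaaattaa
H2AFY, chr5:135333900-135333929, minus strand: tgtcatccctgcaggacaggatccctggca
H1F0, chr22:37807407-37807436, plus strand: ttaaAATAAAttggaaaagggagaaactga
H1FX, chr3:129314771-129314800, minus strand: ttgggcacAATAAAgcgtttaaacctttca
H3F3A, chr1:226071972-226072001, plus strand: taagtttgctATTAAAatacattaaactat
The hexamers AATAAA and ATTAAA were searched on the transcript strand in the last 40 bases. At least 1 was found in 7 of the 10 members, against 73.8% of 18816 protein-coding genes and 21 of 36 replicative histone genes. In H2AFV, H2AFX and H2AFY these letters were not in that window. The window belongs to 1 annotated transcript per gene, and which ends were in use was not checked. For H2AFV that transcript ends at base 44834228, while the annotated gene extends to 44826791.

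H2AFX was the one member whose 3′ untranslated region also held the letters of the replicative stem-loop, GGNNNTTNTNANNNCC on the transcript strand. The motif occurred in 2.70% of the 18816 genes and in 30 of 36 replicative histone genes. HIST3H2A, a histone H2A gene, is shown beside it, with the motif in capitals.
H2AFX, chr11:119094891-119094920, minus strand: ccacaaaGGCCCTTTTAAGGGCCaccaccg
HIST3H2A, chr1:228457362-228457391, minus strand: acataaaGGCTCTTTTCAGAGCCacctact
In H2AFX the motif began 49 bases after the stop codon and lay 1044 bases before the annotated end. In HIST3H2A it began 40 bases after the stop codon and lay 390 bases before the annotated end. H2AFX is known to make both a stem-loop and a polyadenylated mRNA, and these libraries hold the latter.

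The start regions of both H2A.Z genes are printed because this pair fell together in what follows. They are the 250 bases before the RefSeq start (GRCh38.p14), read on the gene's strand, with CCAAT or its complement ATTGG in capitals, the letters known as the box bound by NF-Y.
H2AFZ, chr4:99950276-99950525, minus strand: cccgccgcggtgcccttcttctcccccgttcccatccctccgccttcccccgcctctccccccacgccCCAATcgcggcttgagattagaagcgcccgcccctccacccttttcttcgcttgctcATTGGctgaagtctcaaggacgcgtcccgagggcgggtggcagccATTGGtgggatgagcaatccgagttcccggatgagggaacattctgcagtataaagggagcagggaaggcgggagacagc
H2AFV, chr7:44848088-44848337, minus strand: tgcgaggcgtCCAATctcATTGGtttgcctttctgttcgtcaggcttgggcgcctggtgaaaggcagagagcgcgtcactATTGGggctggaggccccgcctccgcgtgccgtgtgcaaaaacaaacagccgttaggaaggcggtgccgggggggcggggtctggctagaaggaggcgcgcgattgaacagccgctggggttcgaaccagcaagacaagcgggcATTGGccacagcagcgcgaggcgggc
H2AFZ held 3 such boxes, 182, 125 and 80 bases before the start, and H2AFV held 4. Start regions were found for 9 of the 10 members (not H1F0), each taken to 50 bases after the start for counting. H2AFX and H3F3B held 4 boxes each, H2AFJ 3 and H3F3A 1. None was found in H2AFY, H2AFY2 or H1FX. Of 27305 RefSeq start regions, 35.7% held at least 1 box and 11.3% at least 2. Further motifs were searched on both strands. TATAAA was present in H2AFZ, H2AFX, H3F3B and H1FX and in 3264 of the 27305 start regions. The E2F-type letters TTTNNCGC were present in H3F3B and in 6.90% of all. GGGCGG, the letters of a GC box, was present in H2AFZ, H2AFV, H2AFY, H3F3A and H3F3B and in 44.6% of all. A match is a match of letters and does not show binding.

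**Figure D1:**
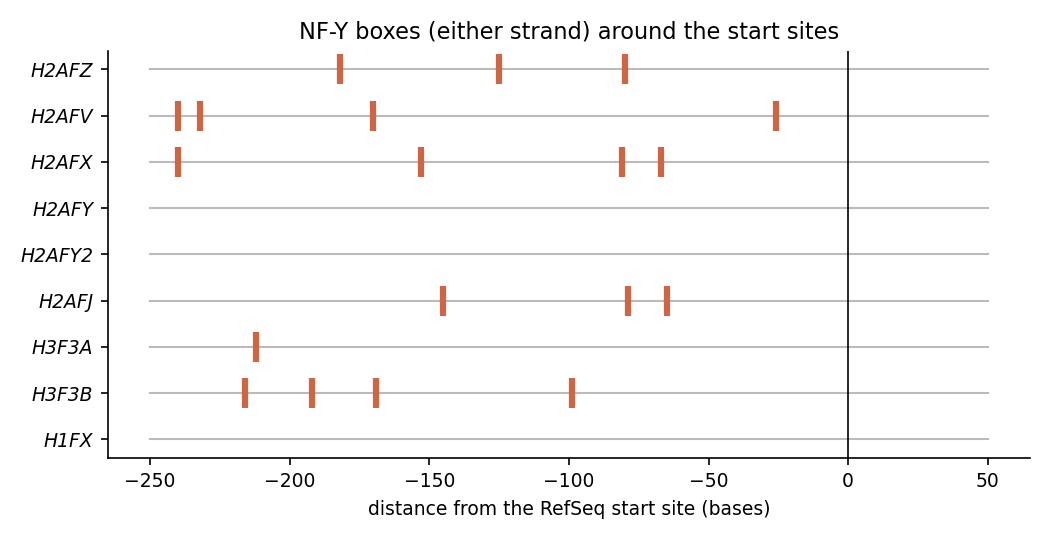
Positions of NF-Y box letters, on either strand, from 250 bases before to 50 bases after the RefSeq start site (x axis, bases) for the 9 members with a start region (rows). H2AFV, H2AFX and H3F3B have 4 marks each, and H2AFY, H2AFY2 and H1FX have none.

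The endogenous counts summed to between 7337033 and 20269171 per scrambled library and to between 6591194 and 11366971 per SUPT4H1 library, and RNA integrity numbers lay between 9.6 and 10. SUPT4H1 itself was at 184 ± 8.95 CPM (TMM-scaled counts as a rate over the sum of endogenous counts, CPM; mean ± SD, n = 6) in the scrambled libraries and 20.8 ± 1.79 CPM (n = 6) with its own siRNA, a log2 fold change of −3.14 (SE 0.08, adjusted p = 3.62e-17, edgeR quasi-likelihood test). Of 9 HEK293 and embryonic kidney markers 6 were clearly present (NEFL at 1432 CPM, VIM at 260.2 CPM and KRT18 at 132 CPM with scrambled siRNA), while PAX2 (1.59 CPM), NEFM (1.55 CPM) and SIX2 (1.69 CPM) were near the floor. In relative terms NEFL (log2 fold change −0.61) and KRT18 (−0.44) fell, and VIM (0.27) and CDH2 (0.26) rose, with spike-in-scaled values of −0.56 and −0.55 for the risen ones. The 6 leukocyte and 5 endothelial markers summed to at most 1.83 CPM in any library and none passed the filter; 7 fibroblast markers summed to between 9.13 and 14.9 CPM with scrambled siRNA and to between 9.76 and 14.7 CPM with SUPT4H1 siRNA. Of the 3 fibroblast markers tested, COL3A1 (1.27 to 2.23 CPM, log2 fold change 0.85, adjusted p = 0.0159) and PDGFRA (1.42 to 2.39 CPM, 0.79, adjusted p = 0.0223) rose in relative terms, with spike-in-scaled values of −0.02 and −0.17. The part of these marker changes in the members' changes was not tested. On the second principal component of all tested genes, which held 15.8% of the variance, SUPT4H1 replicate 6 stood at 43.4, apart from the other 5 of its group (−21.2 to −3.62).

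With scrambled siRNA the levels of the variants spanned from under 1 CPM to over 1600 CPM. H2AFZ was highest, at 1673 ± 214 CPM (SD, n = 6), the 67th most abundant of all tested genes. H3F3B followed at 1278 ± 69.6 CPM and H2AFV at 722 ± 12.1 CPM. Below them stood H2AFY at 299 ± 34.8 CPM, H1FX at 185 ± 18.9 CPM, H1F0 at 101 ± 14.8 CPM and H2AFX at 80.0 ± 7.99 CPM. H2AFY2 at 17.9 ± 2.74 CPM, H3F3A at 7.46 ± 1.55 CPM and H2AFJ at 0.283 ± 0.207 CPM closed the order. Each step of this order held in 6 of 6 scrambled libraries. Only the neighbours H1F0 and H2AFX had ranges that overlapped between libraries, with a ratio of means of 1.26.

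**Figure D2:**
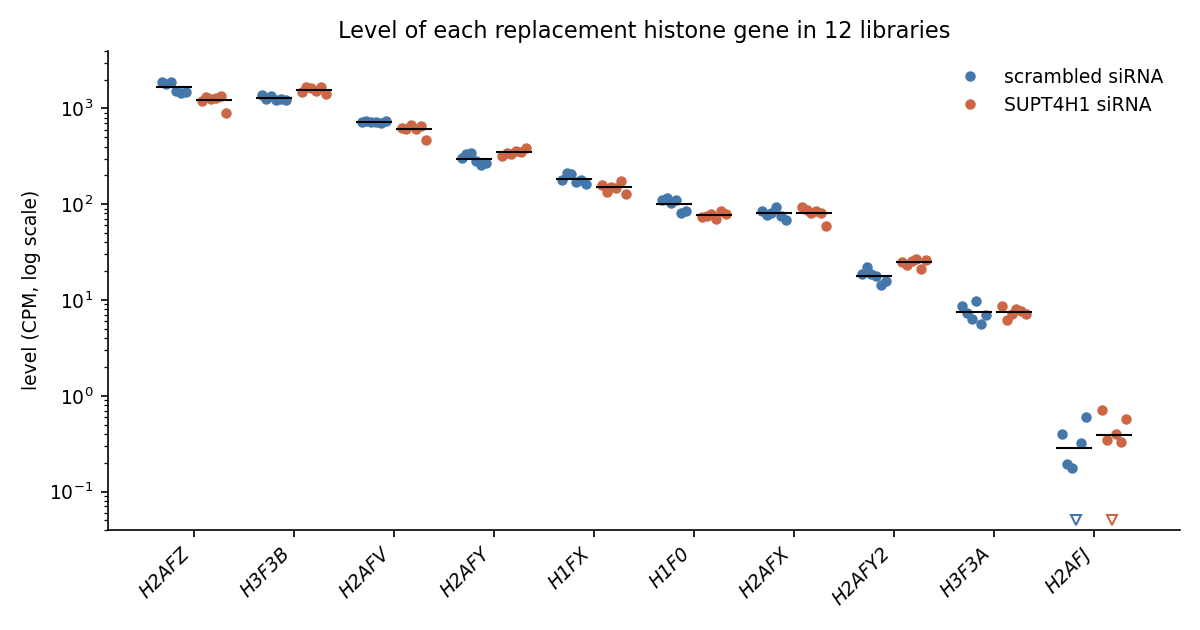
Level of each member in each library, as CPM on a log axis, with scrambled and SUPT4H1 libraries side by side (points, 6 per group). H2AFZ lies between 902 and 1899 CPM and H3F3B between 1215 and 1673 CPM, while H3F3A lies between 5.64 and 9.86 CPM.

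Relative to all other mRNAs, 4 members fell and 3 rose when SUPT4H1 was knocked down (adjusted p under 0.05 over 13820 genes, edgeR quasi-likelihood test). Both H2A.Z genes and both linker histones fell, H3F3B and both macroH2A genes rose relative to the rest, and H2AFX and H3F3A did not pass the test. Over all tested genes 20.3 percent rose and 19.8 percent fell, so 3 risen and 4 fallen of 9 are read against that background, and the median log2 fold change was 0.02 for the 9 members and 0.00 for all genes. Every change was small. None of the 9 passed a test for a change of more than 1.5-fold (edgeR glmTreat, 0 members also at an unadjusted p under 0.05). Of the 13820 genes tested, 535 passed it, a small share against which 0 of 9 is read. The CPM of both groups did not overlap for 3 members (H2AFZ, H2AFV and H3F3B), against 20.2 percent of all genes tested.

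**Figure D3:**
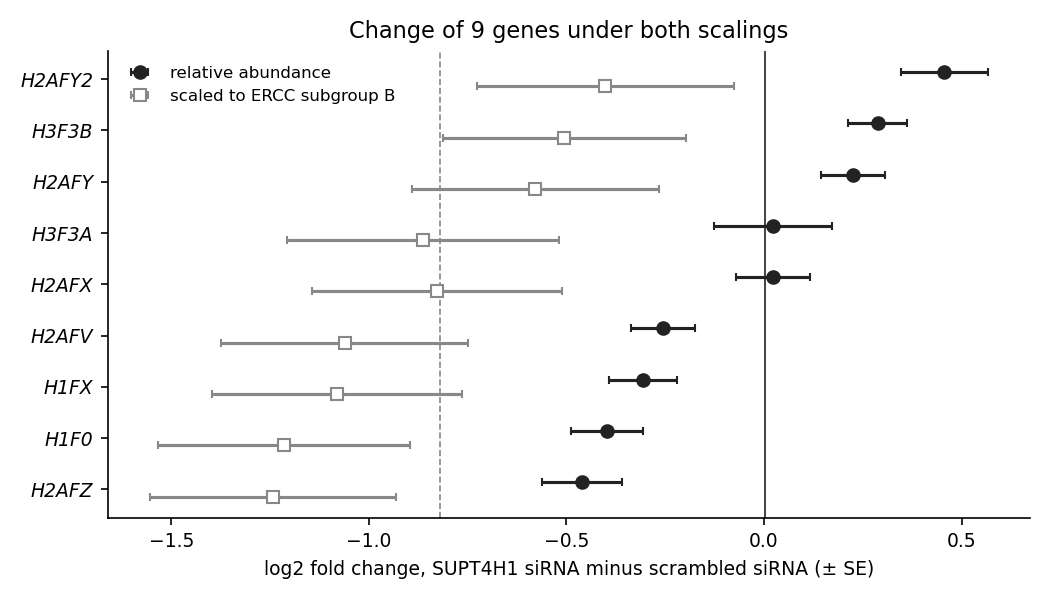
Log2 fold change (SUPT4H1 minus scrambled) of the 9 tested members with bars of 1 standard error, once relative to all mRNAs and once scaled to the spike-in standards. Relative values run from −0.46 (H2AFZ) to 0.46 (H2AFY2); the spike-in-scaled values of all 9 lie below 0.

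H2AFZ lies at chr4:99948086-99950388 on the minus strand (GRCh38) and has 5 exons. It encodes H2A.Z.1, the more abundant H2A.Z transcript here. Its scrambled libraries ran from 1439 over a median of 1667 to 1899 CPM and its SUPT4H1 libraries from 902 over 1268 to 1336 CPM. All 6 SUPT4H1 libraries were lower than the lowest scrambled library. The log2 fold change was −0.46 (SE 0.10, adjusted p = 0.00113), to 72.7% of the scrambled level. The lowest value, 902 CPM, was SUPT4H1 replicate 6, and the log2 fold change without that library was −0.41 (adjusted p = 0.000192).

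H2AFV, the gene of H2A.Z.2 at chr7:44826791-44848083 on the minus strand, has a coding sequence of the same length as that of H2AFZ, 384 bases. With scrambled siRNA its libraries lay close together, from 701 over a median of 722 to 735 CPM. With SUPT4H1 siRNA they ran from 468 over 612 to 668 CPM, again with no overlap and with replicate 6 lowest. The log2 fold change was −0.26 (SE 0.08, adjusted p = 0.0155), and −0.22 (adjusted p = 0.00641) without that replicate. Summed, the H2A.Z genes went from 2394 ± 217 to 1820 ± 229 CPM (SD, n = 6 each). H2AFZ gave 69.7% ± 2.65 of that sum with scrambled siRNA and 66.8% ± 1.24 with SUPT4H1 siRNA.

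H2AFX, an intronless gene at chr11:119093854-119095467 on the minus strand, ran from 69.2 over a median of 79.1 to 92.6 CPM with scrambled siRNA. With SUPT4H1 siRNA it ran from 59.9 over 82.6 to 94.2 CPM. The groups overlapped almost wholly. Its log2 fold change was 0.02 (SE 0.09, adjusted p = 0.872) and failed the test, with a sign that turned under upper-quartile scaling and when single libraries were left out (−0.026 to 0.070).

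H2AFY, the gene of macroH2A1, spans chr5:135333900-135399914 on the minus strand with 9 exons. The protein joins a histone fold to a large macrodomain. Scrambled libraries ran from 259 over a median of 292 to 346 CPM and SUPT4H1 libraries from 321 over 347 to 386 CPM. Scrambled replicate 3, the highest of its group, lay above 3 of the SUPT4H1 libraries, so the groups overlapped. H2AFY rose relative to other mRNAs by a log2 fold change of 0.22 (SE 0.08, adjusted p = 0.0317), while its spike-in-scaled value was −0.58. The relative call was the least firm of the 7: it was lost without any 1 of scrambled replicates 1, 4, 5 and 6 or SUPT4H1 replicates 4, 5 and 6 (adjusted p between 0.0517 and 0.079), and with RNA integrity as a covariate (adjusted p = 0.0916). The antisense gene C5orf66 covers the end of H2AFY and shares 214 of the 251 words of 50 bases in its last 300 bases. No source used here says whether the counting used strand, so reads of the pair cannot be told apart.

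H2AFY2 at chr10:70052796-70112280 on the plus strand encodes macroH2A2 and was the rarer macroH2A transcript: H2AFY gave 94.4% ± 0.442 of their sum with scrambled siRNA and 93.4% ± 0.581 with SUPT4H1 siRNA. Its scrambled libraries ran from 14.3 over a median of 18.1 to 22.3 CPM and its SUPT4H1 libraries from 21.1 over 25.3 to 26.7 CPM. Only scrambled replicate 2 reached into the range of the SUPT4H1 group. H2AFY2 rose relative to other mRNAs by 0.46 (log2, SE 0.11, adjusted p = 0.00236), the largest rise among the members, while its spike-in-scaled value was −0.40. Its end is overlapped on the other strand by AIFM2, which encodes an oxidoreductase and moved the other way, from 19.1 ± 2.03 to 13.6 ± 1.90 CPM (log2 fold change −0.49, adjusted p = 0.00179). The AIFM2 gene covers the last 300 bases of H2AFY2 at a similar level. Unlike at the end of H2AFY, 0 of the 251 words searched there occurred in transcripts of other genes. Whether AIFM2 reads entered the H2AFY2 count was not tested, as no strand setting is stated. The rise of H2AFY2 keeps that limit. H2AFJ at chr12:14774383-14778002 had 0 to 9 counts per library and was not tested. It was at 0 in scrambled replicate 4 and in SUPT4H1 replicate 3, where a count of 0 allows up to 0.405 and 0.306 CPM (3 counts, counting error only).

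H3F3B, at chr17:75776434-75785893 on the minus strand, has 4 exons and a 3′ untranslated region of 2161 bases. It carried nearly all counts of H3.3. Scrambled libraries ran from 1215 over a median of 1248 to 1373 CPM and SUPT4H1 libraries from 1402 over 1566 to 1673 CPM. Every SUPT4H1 library was higher than every scrambled one. H3F3B rose relative to other mRNAs by 0.29 (log2, SE 0.07, adjusted p = 0.00402), while its spike-in-scaled value was −0.51. UNK overlaps H3F3B on the other strand, away from its end.

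H3F3A, at chr1:226061851-226072001 on the plus strand, encodes the same H3.3 protein from a coding sequence of equal length, 408 bases. It had 49 to 150 counts per library. Scrambled libraries ran from 5.64 over a median of 7.16 to 9.86 CPM and SUPT4H1 libraries from 6.25 over 7.41 to 8.71 CPM. The SUPT4H1 range lay inside the scrambled range. Its log2 fold change was 0.02 (SE 0.15, adjusted p = 0.921) and failed the test, with a sign that turned under upper-quartile scaling and when single libraries were left out (−0.045 to 0.096). H3F3A made up 0.582% ± 0.129 (SD, n = 6) of the H3.3 counts in scrambled libraries and 0.482% ± 0.0755 in SUPT4H1 libraries. The 5 rows of annotated H3F3A pseudogenes held 280 counts over the 12 libraries against 1094 of H3F3A, 20.4% of both. No source used here says how the counting treated reads that match several copies, so the level of H3F3A is uncertain. For H2AFZ and H3F3B the pseudogene rows held 0.059% and 0.0111%.

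H1F0 lies at chr22:37805093-37807436 on the plus strand and is without introns. It encodes H1.0, the linker histone known to gather in cells that leave the cycle. Scrambled libraries ran from 81.2 over a median of 106 to 117 CPM and SUPT4H1 libraries from 69.6 over 77.0 to 84.3 CPM. Scrambled replicate 5 was inside the range of the SUPT4H1 group and the other 5 were above it. H1F0 fell by 0.40 on the log2 scale (SE 0.09, adjusted p = 0.00164), to 76.0% of the scrambled level.

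H1FX, also without introns, lies at chr3:129314771-129316277 on the minus strand and encodes H1X. Scrambled libraries ran from 163 over a median of 180.2 to 210.3 CPM and SUPT4H1 libraries from 129 over 149 to 175 CPM. The highest SUPT4H1 library, replicate 5, lay above the 2 lowest scrambled ones. H1FX fell by 0.31 on the log2 scale (SE 0.09, adjusted p = 0.00701). Both linker genes together went from 286 ± 29.1 to 226 ± 19.1 CPM, and H1F0 gave 35.3% ± 3.11 and 34.1% ± 2.51 of the sum. H1FX-AS1 on the other strand was at 2.45 CPM and 1.82 CPM.

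Scaled to the standards, that is per lysate, none of the members rose and 6 fell: H2AFZ, H2AFV, H2AFX, H3F3A, H1F0 and H1FX (edgeR quasi-likelihood test, 0 risen also at an unadjusted p under 0.05). The background was 0.304 percent risen and 59.0 percent fallen of all genes, with a median log2 fold change of −0.82 for all genes and −0.86 for the 9 members. H2AFZ fell most, by 1.24 on the log2 scale (SE 0.31, adjusted p = 0.000679), to 42.3% of its scrambled level. H1F0 fell by 1.22 (adjusted p = 0.00112), H1FX fell by 1.08 (adjusted p = 0.00313) and H2AFV fell by 1.06 (adjusted p = 0.00329). H3F3A fell by 0.86 (adjusted p = 0.0254) and H2AFX fell by 0.83 (adjusted p = 0.0204). The 3 genes that rose in relative terms did not pass here, at −0.58 for H2AFY (adjusted p = 0.0925), −0.51 for H3F3B (adjusted p = 0.135) and −0.40 for H2AFY2 (adjusted p = 0.258).

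These per-lysate values rest on few standards and on 1 mix per group. The standards of subgroup B, nominally equal in both mixes, were used. With subgroup C in their place only H2AFZ and H1F0 passed, that is 2 members. SUPT4H1 replicate 5 did not share the fall of its group. Its log2 ratio of endogenous to subgroup B counts was 9.27, inside the scrambled range of 8.78 to 9.74. The other SUPT4H1 libraries lay between 7.62 and 8.38. Without SUPT4H1 replicate 5 all 9 members fell, H3F3B (−0.83), H2AFY (−0.86) and H2AFY2 (−0.60) included. H2AFX lost its call without scrambled replicate 4 or SUPT4H1 replicate 3, 4 or 6, and H3F3A without scrambled replicate 1 or 4 or SUPT4H1 replicate 1, 2, 3, 4 or 6. Fewer cells in a lysate and less mRNA per cell cannot be told apart, nor can mix and group.

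Ratios within a pair do not depend on the scaling of a library and show whether both genes of a pair changed by the same factor. For H2AFY to H2AFY2 the log2 ratio went from 4.06 ± 0.12 to 3.82 ± 0.14 (SD, n = 6), a difference of −0.24 with a 95% interval from −0.40 to −0.08 (p = 0.0173 by an exact permutation test, 2-sided; 0.0693 when adjusted over the 4 pairs). For H2AFZ to H2AFV it went from 1.20 ± 0.18 to 1.01 ± 0.08, a difference of −0.20 with an interval from −0.39 to −0.01 (exact permutation p = 0.0455, adjusted p = 0.0909). For H3F3A to H3F3B the difference was −0.25 with an interval from −0.60 to 0.09 (exact permutation p = 0.143, adjusted p = 0.19). The linker pair, H1F0 to H1FX, differed by −0.08 with an interval from −0.31 to 0.15 (exact permutation p = 0.476, adjusted p = 0.476). No pair passed after adjustment. The macroH2A ratio did pass without scrambled replicate 2 (exact permutation, adjusted p = 0.0346) and without SUPT4H1 replicate 5 (exact permutation, adjusted p = 0.0173). It did not pass with any other single library left out (exact permutation, adjusted p up to 0.113). The limits on strand given above for H2AFY and for H2AFY2 hold for this ratio too.

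**Figure D4:**
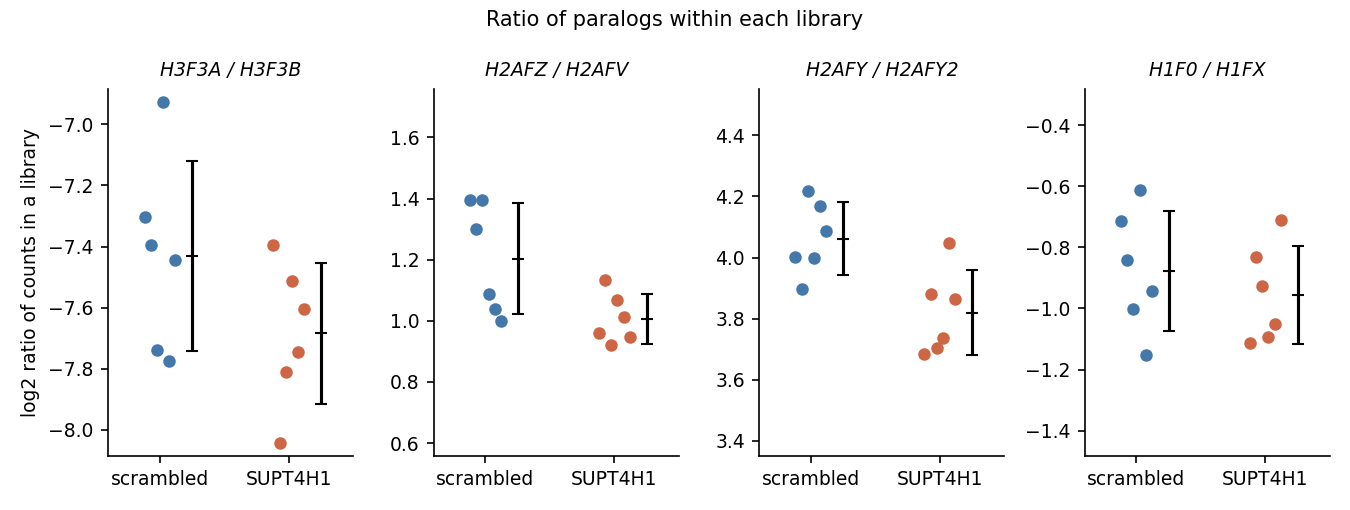
Log2 ratio of counts within each of the 4 pairs in every library (points, 6 per group) with the group mean and SD. The H2AFY to H2AFY2 ratio centres on 4.06 with scrambled siRNA and 3.82 with SUPT4H1 siRNA, and the H1F0 to H1FX ratio on −0.88 and −0.95.

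The proteins that place and remove these variants were described from gene lists, whose counts stand beside 20.3 percent risen, 19.8 percent fallen and a median of 0.00 over all genes tested; no list was tested as a group. Of 23 genes of H2A.Z exchange and removal (the SRCAP, TIP60-p400 and INO80 complexes and ANP32E), 1 rose and 4 fell in relative terms, with a median log2 fold change of −0.03. YEATS4, the reader subunit shared by SRCAP and TIP60-p400, fell by 0.73 (adjusted p = 3.4e-07), from 145 to 87.3 CPM. BRD8, EPC1 and MRGBP, further TIP60-p400 subunits, had values of −0.32, −0.30 and −0.30 and fell too. EPC2 is named as the one that rose, by 0.41, with a spike-in-scaled value of −0.38.

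Of 10 genes of H3.3 deposition and reading, 4 rose and 3 fell, with a median of 0.35. The risen ones were HIRA (0.58), the chaperone that places H3.3 in transcribed genes, and its known partners UBN1 (0.62), UBN2 (0.54) and CABIN1 (0.35), of which UBN2 and CABIN1 are named after their values were seen; the spike-in-scaled values were −0.27, −0.18, −0.23 and −0.49, none of which passed. DEK, a chromatin protein that binds H3.3, fell by 0.46, ZMYND11, a reader of H3.3, fell by 0.31, and ASF1A, which hands H3.3 to HIRA, fell by 0.39.

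Of 17 general and replication-coupled histone chaperones, 4 rose and 4 fell, with a median of 0.04. CHAF1B, a subunit of the CAF-1 chaperone that works behind replication forks, fell by 0.91 (adjusted p = 8.3e-07), from 82.0 to 43.3 CPM. SET (0.47), IPO4 (0.59) and NASP (0.58), which bind or import histones, rose, with spike-in-scaled values of −0.36, −0.24 and −0.26. Of 15 genes around H2A.X phosphorylation (kinases, readers, a phosphatase and further break-response genes), 2 rose and 1 fell, with a median of 0.19. NBN, a subunit of the MRN break sensor, fell by 0.36, while the phosphatase subunit PPP4C (0.56) and the mark's reader MDC1 (0.26) rose, with spike-in-scaled values of −0.31 and −0.56.

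**Figure D5:**
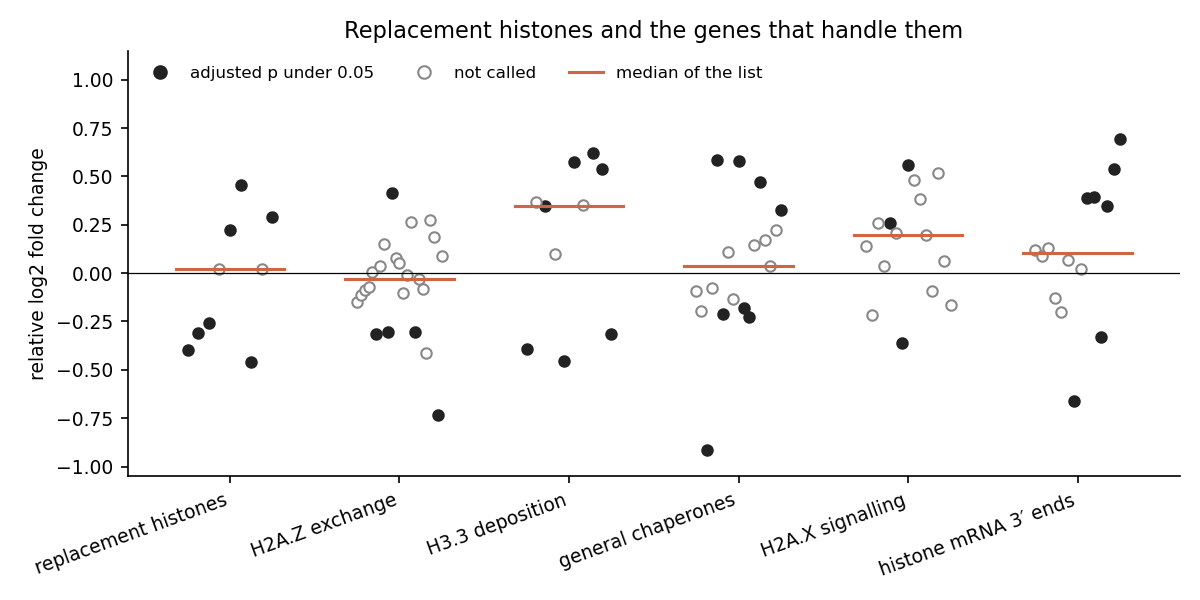
Relative log2 fold change (y axis) of every tested gene of the members and of the lists of genes that handle histones (x axis). Each gene is 1 point, with called genes marked and the list median drawn. The H3.3 deposition list has its median at 0.35 and the members at 0.02.

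Replicative histones differ from the members in that most of their mRNA has no poly(A) tail. They were taken as the 89 rows with a HIST1, HIST2, HIST3 or HIST4 symbol, pseudogenes such as HIST1H3PS1 included. Of these 23 passed the filter, and 4 of them rose and 2 fell in relative terms, with a median of 0.18 and of −0.62 when spike-in-scaled. Their summed level was between 694 and 2090 CPM with scrambled siRNA and between 537 and 2959 CPM with SUPT4H1 siRNA, so the groups overlapped. HIST3H2A, whose stem-loop is printed above, fell by 1.22 on the log2 scale, from 127 to 54.7 CPM. HIST1H2AC (0.77, from 17.3 to 29.5 CPM), HIST1H4H (1.13, from 2.14 to 4.72 CPM) and HIST1H2BG (0.70, from 3.89 to 6.26 CPM), which encode H2A, H4 and H2B, rose in relative terms, with spike-in-scaled values of −0.04, 0.30 and −0.11 that did not pass. CENPA, the centromeric H3 variant, fell by 0.71, from 23.1 to 14.05 CPM. Of 14 tested genes of histone mRNA 3′ processing, 5 rose and 2 fell. The U7 snRNP subunit LSM11 fell by 0.66, while ZNF473 (0.69), SRRT (0.35) and SYMPK (0.54) rose, with spike-in-scaled values of −0.09, −0.46 and −0.31; SLBP, which binds the stem-loop, fell by 0.33.

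The genes whose levels ran most like those of a called member were searched among 6644 genes of at least 20 CPM, by the Pearson correlation of log2 CPM over the 12 libraries. These values are descriptions: the points share libraries, scaling and the difference between groups. ETFA ran closest to H2AFZ (r = 0.989, and 0.978 after taking off group means), followed by LARP4B (0.971). PHF13 (0.975) and FOPNL (0.974) ran closest to H2AFV, SENP7 (0.976) and SFPQ (0.967) to H2AFY, and C17orf80 (0.970) and CSRP2 (0.955) to H2AFY2. For H3F3B they were MAGED1 (0.972) and RELA (0.965), for H1F0 ACYP1 (0.946) and TMEM242 (0.938), and for H1FX GMDS (0.907) and HERC4 (0.893). No member was among the 2 genes closest to another member.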

How the data were processed

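The 12 QuantSeq forward 3′ mRNA libraries fall into 6 per group, each from a separate transfection of 1 culture, per the labels; p-values measure how such transfections of this culture vary. The authors deposited 1 table of raw counts per gene, made with STAR on GRCh38.p10 and with R 3.4.3, FastQC 0.11.5 and MultiQC, per the submitters' processing notes; the counter, annotation and strand setting were not given in the sources used here. The labels name the time after infection in one field and after transfection in another. Counts were tested with edgeR 4.0.16 (robust quasi-likelihood, R 4.3.3) over 13820 genes left by filterByExpr, with Benjamini-Hochberg adjustment over all of them and a threshold of 0.05. TMM factors came from endogenous genes; the reporter row and the 92 ERCC rows entered neither library sizes nor tests. SE is the log2 fold change divided by the root of F. Spike-in scaling used the summed 23 standards of subgroup B; which standard belongs to which subgroup came from general knowledge, not from a supplied table. Standards whose counts reached 20 in all libraries, 5 to 7 per subgroup, gave medians of −2.00, −0.01, 0.59 and 0.98 (log2, subgroups A to D). The nominal values are −2, 0, 0.58 and 1. The medians were taken after scaling to subgroup B, so that of B lies near 0 by construction. Pair ratios had 1 count added and an exact permutation test (smallest p 0.0022).

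All members were named, in each list up to 4 called genes by adjusted p, and for each called member the 2 most similar genes; EPC2, UBN2, CABIN1, ASF1A and SLBP were added after their values were seen. The members and lists were chosen with earlier results of these data known. Alternatives were DESeq2 1.42.0, limma-voom (limma 3.58.1), other scalings and standards, no filter, a block, RNA integrity, a minimum change, pseudogene counts added and leaving out each library. Transcript ends came from GENCODE 29, from the principal protein-coding transcript with the farthest end, and start regions from RefSeq (GRCh38.p14). The fitting code was tested on simulated data. Within groups, all 30 pairs of libraries differed by more than sampling noise (chi-square over its degrees of freedom 4.45 to 34.7).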

Additional observations from a re-analysis of the deposited data

Results flagged for a closer look

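H2AFZ in SUPT4H1 siRNA replicate 6 was at 902 CPM, far from the other 5 libraries of its group (1201 to 1336 CPM). H2AFV in the same library was at 468 CPM, against 604 to 668 CPM in the others. Of 28 sets of 6 values examined, these 2 had such a gap, and chance gives about 1.4. Both H2A.Z genes stayed called without that library (log2 fold changes −0.41 and −0.22, edgeR adjusted p = 0.000192 and 0.00641).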

How the results depend on the processing

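Relative calls for H2AFZ, H2AFV, H2AFY2, H3F3B, H1F0 and H1FX held under DESeq2, limma-voom, the other scalings, no filter, RNA integrity and each left-out library. They did not hold with a minimum change of 1.5-fold, under which 0 members rose and 0 fell. Added pseudogene counts left these calls in place but could hardly move them. For these genes the pseudogene rows held at most 0.059% of the counts of both. With single libraries left out, 2 to 3 members rose and 4 fell. The sign of H2AFX (−0.0012) and of H3F3A (−0.00070) turned with upper-quartile factors, and with single libraries left out they ran from −0.026 to 0.070 and from −0.045 to 0.096; the cause was not tested. With spike-in scaling, 2 members fell by subgroup C and 4 to 9 with single libraries left out; the cause was not tested. The H2AFY to H2AFY2 ratio ran from −0.29 to −0.21 with single libraries left out. Same-numbered libraries did not deviate together (correlations −0.27 to 0.05), and none of the scrambled libraries correlated best with its own number. With the replicate number as a block, 2 members rose and 4 fell in relative terms and 7 fell per lysate; H2AFY had a relative adjusted p of 0.0687 (edgeR), and per lysate −0.67 with 0.0485, and no other call of a member changed. Depth limits H3F3A and H2AFJ most, at 49 to 150 and 0 to 9 counts per library.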
